A study of Mus musculus with 2 samples.

Results

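Genes that control the decay or stability of inflammatory mRNA were read in the nucleoplasm of stimulated mouse macrophages. The 10 genes were Zfp36, Zfp36l1, Zfp36l2, Zc3h12a, Zc3h12c, Rc3h1, Rc3h2, Elavl1, Arid5a and Khsrp. They were taken by symbol, with no threshold on a measured value, and all 10 were found among the 55450 named genes of the tables. The cells were macrophages grown from bone marrow (BMDM) of strain C57BL/6J, stimulated with Lipid A at 100 ng/ml for 120 min. Lipid A, the membrane anchor of bacterial lipopolysaccharide, activates Tlr4. Nucleoplasmic RNA, which leaves out RNA held on chromatin, was depleted of ribosomal RNA and sequenced as total RNA from 2 libraries. In a further label the fraction is given simply as nucleus. The labels number them biological replicates 1 and 2, and give both the same treatment and the same donor entry but separate biosample entries. Age and sex were not collected. RNA input was 1 µg in replicate 1 and 500 ng in replicate 2, so input and replicate cannot be told apart. No unstimulated cells, other times or cytoplasmic RNA were analysed here, so a level is not an induction and nothing was tested between groups.

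As background, the proteins of these genes read short elements in the 3′ untranslated region (3′ UTR) of cytokine, chemokine and signalling mRNAs. Zfp36 encodes tristetraprolin, which binds AU-rich elements such as those of Tnf mRNA and recruits the CCR4-NOT complex to shorten the poly(A) tail. Zfp36l1 and Zfp36l2 encode its relatives. Zc3h12a encodes Regnase-1, an RNA endonuclease that cuts stem-loop elements in Il6 and other mRNAs, and Zc3h12c encodes the related Regnase-3. Rc3h1 and Rc3h2 encode the Roquin proteins, which bind stem-loops and also recruit CCR4-NOT. Khsrp encodes KSRP, which binds AU-rich elements and promotes decay. Elavl1 encodes HuR, which binds AU-rich and U-rich elements and mostly stabilises the mRNA. Arid5a encodes a protein that stabilises Il6 mRNA and counteracts Regnase-1. Several of these factors bind their own or each other's mRNAs in macrophages.

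Many mRNAs under such control carry the AU-rich nonamer TTATTTATT, the DNA spelling of the preferred site of tristetraprolin. The mRNAs of 6 of the 10 genes hold it in the 3′ UTR of a coding transcript in the GENCODE M21 annotation. The first such site of each of the 6 is printed below in 30 bases, 5′ to 3′ on the strand of the gene, with matches to the nonamer in capitals. The site of Tnf, the classic target of tristetraprolin, stands beside them for comparison.
Zfp36: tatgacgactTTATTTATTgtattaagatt
Zfp36l1: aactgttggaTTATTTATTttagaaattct
Zfp36l2: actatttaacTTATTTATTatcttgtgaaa
Rc3h1: actttactcaTTATTTATTgagatgaggag
Rc3h2: caaagacattTTATTTATTttactctgtaa
Elavl1: gtcatgaaaaTTATTTATTTATTTATTtat
Tnf: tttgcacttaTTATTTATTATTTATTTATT

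In mm10 these windows lie at chr7:28376950-28376979 (Zfp36, minus strand), chr12:80108166-80108195 (Zfp36l1, minus) and chr17:84184913-84184942 (Zfp36l2, minus). The others lie at chr1:160970043-160970072 (Rc3h1, plus), chr2:37373286-37373315 (Rc3h2, minus), chr8:4285787-4285816 (Elavl1, minus) and chr17:35199688-35199717 (Tnf, minus). The 3 members of the Zfp36 family each hold 1 nonamer, as do the leading coding transcripts of both Roquin genes. Elavl1-201 holds 8 overlapping or neighbouring copies, which begin 3794 bases after the stop codon, and the Tnf transcript holds 5. Zc3h12a, Zc3h12c, Arid5a and Khsrp hold no copy in any annotated coding transcript.

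All 10 genes were detected, meaning that each had 1 TPM or more in both libraries, against a background of 40.5% of 21938 nuclear-encoded protein-coding genes. TPM is an estimate of transcripts per length, brought to the same sum in every library. The 10 genes took 25553 of 14374739 estimated counts in replicate 1 (0.178%) and 21893 of 16372797 in replicate 2 (0.134%). The lowest count of any member in any library was 361. The median TPM over the 10 genes was 30.2 in replicate 1 and 16.7 in replicate 2. Over 8886 detected protein-coding genes it was 10.7 and 7.35. In both libraries 8 of the 10 genes stood above that median, against 45.6% of detected protein-coding genes. Zfp36l2 stood below it in both libraries and Zfp36l1 in replicate 2.

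Both libraries carried macrophage RNA but did not match each other in composition. All 8 macrophage markers were detected, with medians of 75.2 and 113 TPM in replicates 1 and 2, and 4 of them, Lyz2, Cd68, Csf1r and Itgam, were over 2-fold higher in replicate 2 relative to the median gene. No marker of T cells, B cells or neutrophils reached 1 TPM in both libraries of the gene tables, and the summed counts were 4 and 2 (5 T cell genes), 35 and 13 (5 B cell genes) and 17 and 22 (5 neutrophil genes). In the authors' second quantification, described below, 1 of these 15 markers did, Cd3d with 8.21 and 7.28 TPM. The 6 stromal markers summed to 4336 counts in replicate 1 and 14 in replicate 2, where Col3a1, Dcn and Lum were at 0. Mitochondrial genes held 0.424% and 8.70% of counts. TPM ran lower in replicate 2, with a log2 ratio of -0.58 for the median gene (mean of at least 1 TPM), and differences between replicates are given below relative to it. In bulk RNA, fewer cells of a type and less RNA per cell cannot be told apart.

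Zfp36, encoding tristetraprolin, was the most abundant of its family by a wide margin. This gene (ENSMUSG00000044786.6, mm10 chromosome 7, 28376784 to 28380253, minus strand) had 3764 and 4052 counts, or 115 and 81.7 TPM, in replicates 1 and 2. It averaged 98.5 ± 23.7 TPM (SD, n = 2, here and below) and stood at percentile 94.5 and 95.0 among detected protein-coding genes. When TPM was rescaled over nuclear-encoded protein-coding genes alone, its values were 388 and 392, nearly equal in the libraries. Zfp36l1 (ENSMUSG00000021127.7, chromosome 12, 80107754 to 80113013, minus strand) had 384 and 365 counts, or 13.5 and 6.19 TPM (9.85 ± 5.18). Zfp36l2 (ENSMUSG00000045817.8, chromosome 17, 84183931 to 84187947, minus strand) had 389 and 361 counts, or 8.34 and 5.13 TPM (6.74 ± 2.27).

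The Zfp36 level was 8.53 times that of Zfp36l1 in replicate 1 and 13.2 times in replicate 2. It was 13.8 and 15.9 times that of Zfp36l2. In the second quantification that the authors deposited, a transcript table made from the read files and called read-based here, these ratios were 7.98 and 11.8 to Zfp36l1 and 12.9 and 15.2 to Zfp36l2. The order of the family was thus the same in both libraries and both quantifications. The mean TPM of Zfp36l1 and Zfp36l2 differed by 3.12, less than the SD of 5.18 of Zfp36l1, and after the rescaling above by 11.2, close to the SD of 11.1.

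The Regnase genes stood at an intermediate level, and their order was not settled. Zc3h12a, encoding Regnase-1 (ENSMUSG00000042677.7, chromosome 4, 125118423 to 125127840, minus strand), had 1214 and 968 counts, or 38.9 and 21.5 TPM (30.2 ± 12.3). Zc3h12c, encoding Regnase-3 (ENSMUSG00000035164.8, chromosome 9, 52111344 to 52168572, minus strand), had 4830 and 2444 counts, or 52.4 and 17.6 TPM (35.0 ± 24.6). The ratio of Zc3h12c to Zc3h12a was 1.35 in replicate 1 and 0.817 in replicate 2, and 0.781 and 0.606 in the read-based table. Zc3h12c thus stood above Zc3h12a in 1 of these 4 readings, which count every transcript. Over transcripts annotated as protein_coding alone, Zc3h12c had 52.4 and 17.6 TPM and Zc3h12a had 32.9 and 17.2 TPM. In the read-based table the coding values were 31.4 and 12.3 TPM for Zc3h12c and 21.6 and 12.4 TPM for Zc3h12a. On the coding measure Zc3h12c was thus the higher except in replicate 2 of the read-based table. The other 2 Regnase genes, listed among related binders, were lower: Zc3h12d had 6.32 and 2.84 TPM. Zc3h12b had 19 and 10 counts, or 0.200 and 0.0900 TPM.

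Both Roquin genes were present, with Rc3h2 above Rc3h1. Rc3h1 (ENSMUSG00000040423.10, chromosome 1, 160906418 to 160974978, plus strand) had 2524 and 3102 counts, or 21.4 and 15.7 TPM (18.6 ± 4.03). Rc3h2 (ENSMUSG00000075376.10, chromosome 2, 37370069 to 37422903, minus strand) had 2984 and 3461 counts, or 46.9 and 32.8 TPM (39.9 ± 9.94). The ratio of Rc3h2 to Rc3h1 was 2.19 and 2.09, and 2.57 and 2.66 in the read-based table. This ratio counts every annotated transcript. Over transcripts annotated as protein_coding alone, Rc3h1 had 18.4 and 13.5 TPM and Rc3h2 had 16.2 and 12.9 TPM, so there the order was the other way round in both libraries.

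Khsrp and Elavl1, whose proteins act in opposite directions on AU-rich mRNA, had similar levels summed over all transcripts. Khsrp (ENSMUSG00000007670.10, chromosome 17, 57021051 to 57031522, minus strand) had 696 and 785 counts, or 18.6 and 12.5 TPM (15.5 ± 4.34). Elavl1 (ENSMUSG00000040028.10, chromosome 8, 4285382 to 4325413, minus strand) had 808 and 798 counts, or 19.2 and 11.1 TPM (15.1 ± 5.77). Elavl1 was the higher of the pair in replicate 1 and Khsrp in replicate 2. Over transcripts annotated as protein_coding alone, Khsrp was the higher in both libraries. It had 12.4 and 9.38 TPM there, and Elavl1 had 8.86 and 6.22 TPM. Of the other Elavl genes, Elavl2 had 1 and 0 counts, Elavl3 had 10 and 0, and Elavl4 had 0 in both libraries. A count of 0 allows up to 3 counts, here and below, for counting error only.

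Arid5a had the highest summed level of the 10 genes, and little of it lay in coding transcripts. Arid5a (ENSMUSG00000037447.16, chromosome 1, 36307733 to 36324029, plus strand) had 7960 and 5557 counts, or 172 and 88.7 TPM (130.5 ± 59.1), at percentile 96.9 and 95.5 of detected protein-coding genes. Its transcripts annotated as protein_coding had 25.5 and 13.3 TPM. On that measure Arid5a held rank 4 and rank 5 among the 10 genes in replicates 1 and 2, behind Zfp36 at rank 1 and Zc3h12c at rank 2 in both libraries.

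By mean TPM the order was Arid5a, Zfp36, Rc3h2, Zc3h12c, Zc3h12a, Rc3h1, Khsrp, Elavl1, Zfp36l1 and Zfp36l2. Of the 9 neighbouring pairs, Zfp36 and Rc3h2 alone were further apart (58.6 TPM) than the larger SD of the pair (23.7 TPM). That SD includes the shift in TPM that both genes of a pair share. After rescaling over nuclear-encoded protein-coding genes, which takes out much of that shift, 6 of the 9 pairs were further apart than their larger SD. The exceptions were Rc3h2 and Zc3h12c, Zc3h12c and Zc3h12a, and Khsrp and Elavl1. Those same 3 pairs changed order between the libraries. Among the 6 pairs, Arid5a and Zfp36 passed only narrowly, 113 apart against an SD of 109 on the rescaled values. Zfp36l1 and Zfp36l2 did too, 11.2 apart against 11.1.

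**Figure D1:**
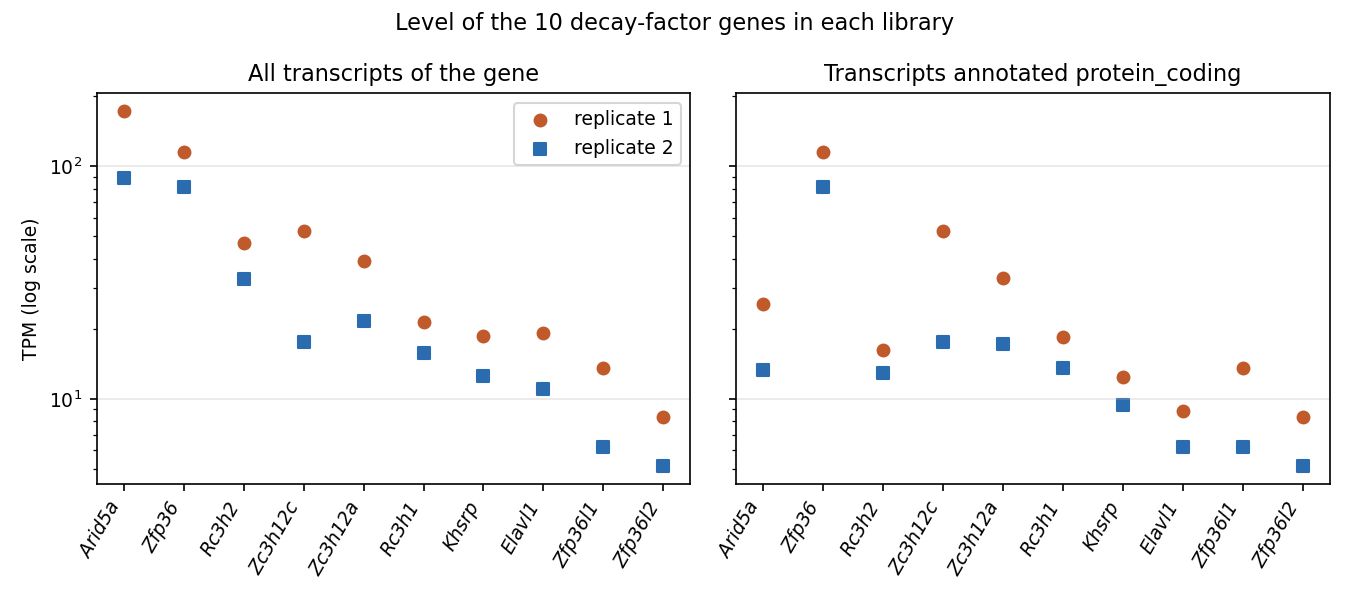
TPM (log axis) of the 10 genes in replicate 1 (circles) and replicate 2 (squares), over all transcripts of each gene (left) and over transcripts annotated protein_coding (right). Arid5a has 172 and 88.7 TPM on the left but 25.5 and 13.3 TPM on the right, while Zfp36 has 115 and 81.7 TPM on both sides.

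No member differed by 2-fold or more between the replicates once the median gene was set to 0. Of 10627 protein-coding genes with at least 10 counts in each library, 5.7% were past 2-fold in either direction, 0.922% lower and 4.78% higher in replicate 2. Differences here are log2 ratios of TPM + 1, replicate 2 over replicate 1, and the added 1 TPM draws low genes toward the value of a gene at 0 in both libraries, which is 0.58. The shares of all protein-coding genes lower or higher in replicate 2 include such low genes, while every member had over 5 TPM. The median over the 10 genes was -0.09, and 0.12 over the 10627. Of the 10 genes 6 were lower than the median gene, against 39.8% of the 10627. The tightest members were Zfp36l2 (-0.02), Khsrp (0.04), Rc3h2 (0.08), Zfp36 (0.09), Rc3h1 (0.16) and Elavl1 (-0.16). Zc3h12a (-0.24), Arid5a (-0.37) and Zfp36l1 (-0.43) were lower in replicate 2. The sign of the first 6 genes turned under at least 1 alternative scaling or table, while Zc3h12a, Arid5a, Zfp36l1 and Zc3h12c stayed below 0 under every alternative run.

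Zc3h12c lay farthest from the median gene among the 10, at -0.94. Of the 10627 genes 1.17% were lower. Over the alternative scalings, pseudocounts and tables its value ran between -1.22 and -0.66, so it was below the median gene in every one of them but past 2-fold only in some. Stromal marker counts, mitochondrial share and RNA input also differed between these libraries, and their part in the result was not tested.

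**Figure D2:**
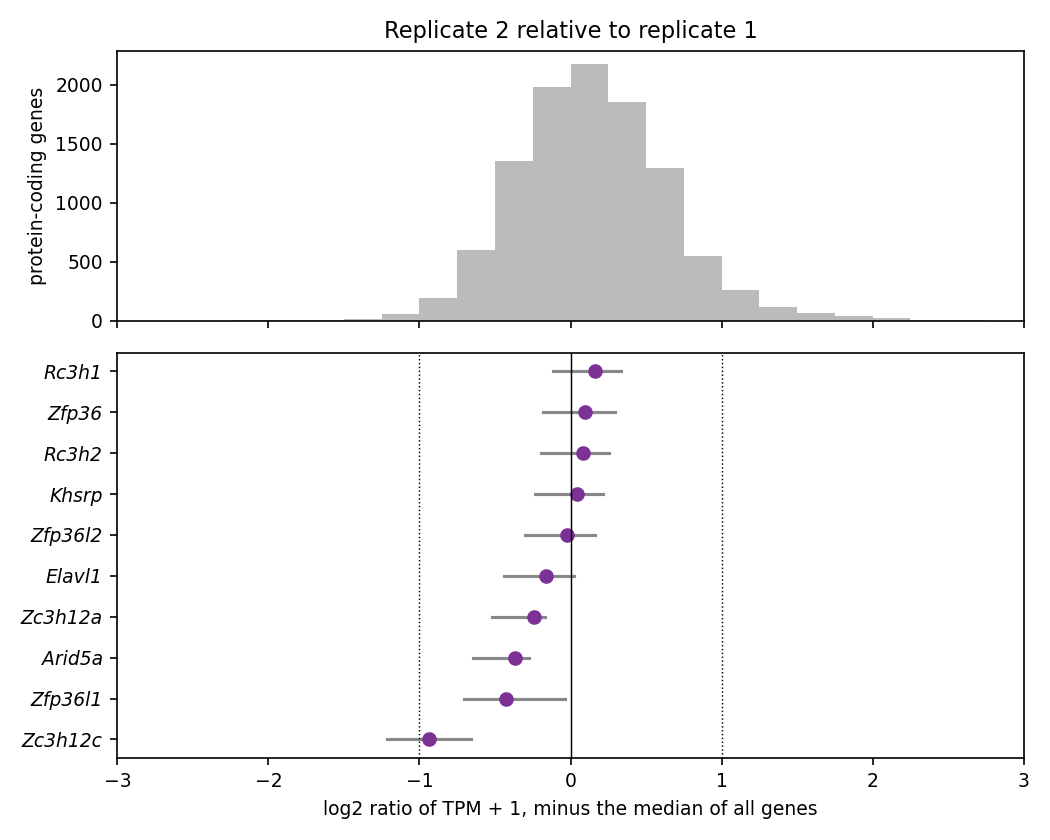
Relative log2 ratio, replicate 2 over replicate 1, for 10627 protein-coding genes (top, count per bin, limited to the range from -3 to 3) and for the 10 genes (bottom; points are the reported values, bars span the alternative settings, dotted lines mark 2-fold). Zc3h12c at -0.94 lies lowest, and the other genes lie between -0.43 and 0.16.

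The transcript tables showed how much of each gene was assigned to annotated transcripts that keep intronic sequence. Introns outside the annotated transcripts of a gene were not counted, so these shares depend on the annotation. Zfp36, Zfp36l1, Zfp36l2 and Zc3h12c have no annotated transcript of another class, so 100% of their TPM is coding by annotation. The other 6 genes have transcripts of the class retained_intron, which keep intronic sequence and carry no annotated open reading frame. The median share of gene TPM in that class was 43.6% and 34.3% over these 6 genes, against 39.3% and 33.0% over the 3788 protein-coding genes that have such a transcript and reach 5 TPM. As a set they lay near the other genes, and the individual genes lay far apart.

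Arid5a and Rc3h2 had the largest retained_intron shares. In Arid5a the share was 71.0% and 62.1% of TPM, and its mean of 66.6% lay at percentile 90.8 of the 3788 genes. In Rc3h2 it was 65.5% and 60.7%, with a mean at percentile 87.8. Elavl1 followed at 53.9% and 43.8% (percentile 70.9), then Khsrp at 33.4% and 24.8% (percentile 38.1). Zc3h12a was at 15.5% and 20.1% (percentile 19.5), and Rc3h1 at 14.2% and 14.0% (percentile 14.1). As shares of counts, which favour long transcripts, the class held 75.1% and 70.0% in Arid5a, 35.9% and 31.7% in Rc3h2, and 34.1% and 29.3% in Elavl1. In Khsrp it held 6.11% and 4.51% of counts, in Zc3h12a 3.10% and 4.20%, and in Rc3h1 0.756% and 0.677%. By TPM, the read-based table kept the order of the other 5 genes but gave 46.2% and 39.0% for Zc3h12a, whose retained_intron transcript of 660 bases drew 37.6 and 40.7 counts in the alignment-based table.

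**Figure D3:**
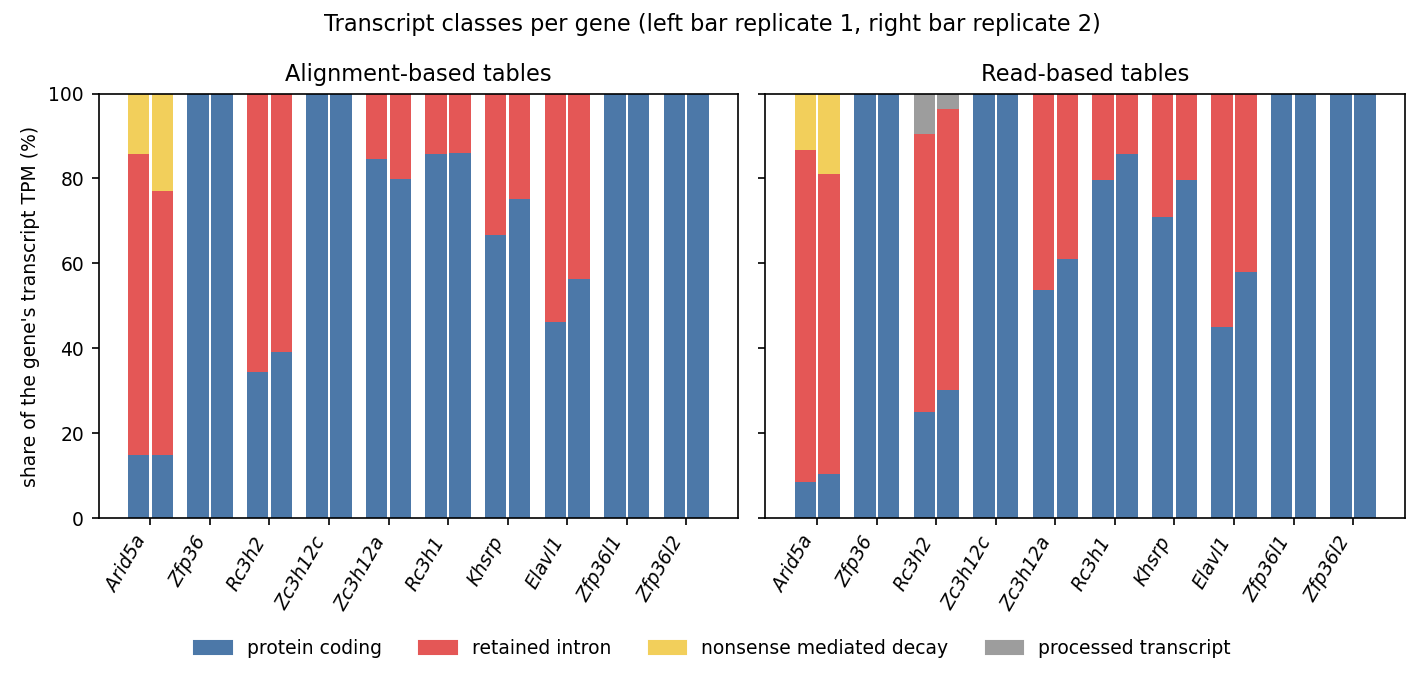
Share of each gene's transcript TPM (percent, from 0) by annotated transcript class, in the alignment-based tables (left) and the read-based tables (right), with replicate 1 as the left bar and replicate 2 as the right bar of each pair. Arid5a and Rc3h2 are mostly retained intron in both tables, at 71.0% and 62.1% and at 65.5% and 60.7% on the left.

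A single transcript carried most Arid5a reads. Arid5a-215 is 1 exon of 5014 bases (chromosome 1, 36307758 to 36312771) that covers the first exon and runs into the first intron, and 96.5% of it lies outside the exons of coding transcripts. It took 4766 of 7960 counts in replicate 1 (59.9%) and 3215 of 5557 in replicate 2 (57.9%). Per length it held 70.6 and 31.6 TPM, or 41.0% and 35.6% of the gene. The deposited posterior SD of its count was 0 in both libraries, so the authors' model assigned these reads to no other transcript. The read-based table gave it 58.1% and 57.4% of the gene's counts.

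The remainder of Arid5a was spread over many forms. Arid5a-206, a second retained_intron transcript, had 26.9 and 9.41 TPM. Arid5a-205, annotated as subject to nonsense-mediated decay, had 24.2 and 20.3 TPM, or 14.0% and 22.9% of the gene. The coding transcripts Arid5a-203, Arid5a-204 and Arid5a-208 had 8.78, 6.99 and 6.31 TPM in replicate 1, and 4.21, 2.81 and 1.60 TPM in replicate 2. No annotated coding transcript reached 10% of the gene's TPM in either library.

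Rc3h2 showed the same kind of signal in several introns. The transcripts Rc3h2-206, Rc3h2-207, Rc3h2-209 and Rc3h2-210, each with over 80% of its length outside the exons of coding transcripts, together held 61.1% and 59.5% of its TPM and 35.5% and 31.6% of its counts. Rc3h2-209 was the highest single transcript in replicate 1 (8.70 TPM), and the coding Rc3h2-201 in replicate 2 (8.32 TPM). In the read-based table Rc3h2-207 (9.98 TPM) and the coding Rc3h2-202 (5.86 TPM) were highest in replicates 1 and 2, and Rc3h2-201 had 0.566 and 2.76 TPM. The coding forms Rc3h2-201 and Rc3h2-202 had 909 and 899 counts in replicate 1 and 1516 and 848 in replicate 2. Their posterior SDs were 104 to 125 counts, because they share most of their exons.

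In Elavl1, the intronic Elavl1-202 held 29.5% and 26.5% of counts. The short Elavl1-203, with 2 exons of 613 bases in all, held 34.7% and 24.1% of TPM from 37.2 and 22.4 counts. It was the leading transcript of the gene in replicate 1. The coding Elavl1-201 led in replicate 2 with 3.95 TPM, and had 5.61 TPM in replicate 1. Counting transcripts by TPM, 3 of the 10 genes (Arid5a, Rc3h2 and Elavl1) were led by a noncoding transcript in at least 1 library, against 30.7% of detected protein-coding genes. Arid5a was led by one in both libraries, as were 16.1% of detected protein-coding genes.

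Zfp36 has a further intron-keeping form that the annotation classes do not show. Zfp36-202 is annotated as protein_coding, but it is a single exon (28376791 to 28379255) that keeps the 680-base intron of Zfp36-201. It took 2840 and 2874 counts and 89.7 and 60.2 TPM, or 77.9% and 73.6% of the gene, against 25.5 and 21.6 TPM for the spliced Zfp36-201. In the read-based table Zfp36-202 had 43.1 and 33.0 TPM and Zfp36-201 had 20.6 and 17.5 TPM. The annotated first exon of Zfp36-201 is 1080 bases long and reaches 1025 bases upstream of the RefSeq start of the gene. M21 lists no spliced form that begins at the RefSeq start, and how that bears on the split of reads was not tested.

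**Figure D4:**
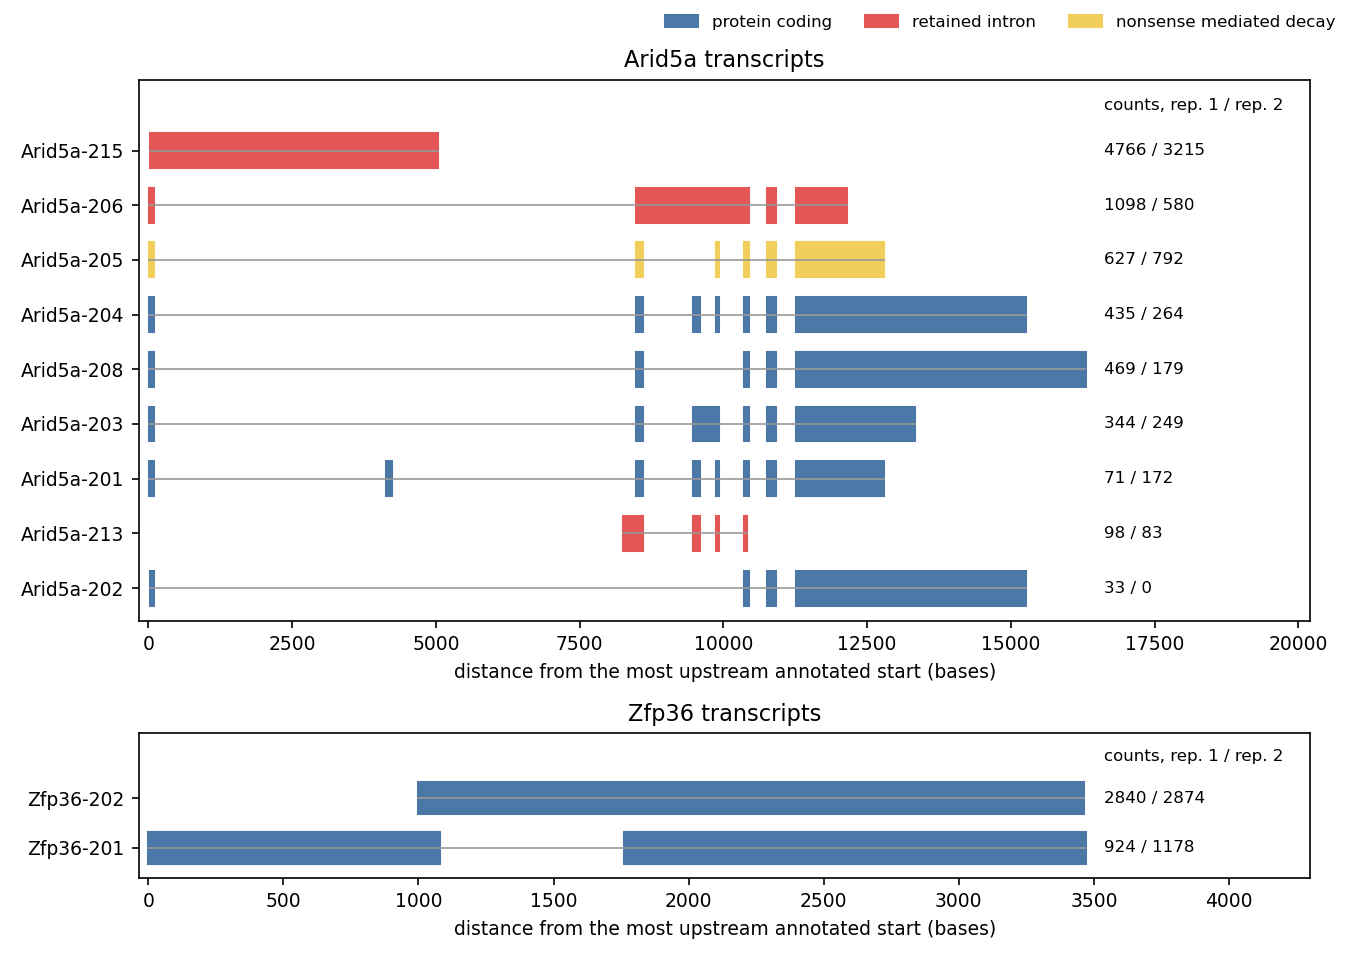
Annotated transcripts of Arid5a and Zfp36 with 20 or more counts in all, as exons (boxes) and introns (lines) by distance from the most upstream start in bases, coloured by class, with estimated counts in replicates 1 and 2 at the right. Arid5a-215, with 4766 and 3215 counts, is a single block that runs into the first intron, and Zfp36-202, with 2840 and 2874 counts, covers the intron of Zfp36-201.

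The other members each had 1 coding form as their highest transcript in the alignment-based table. Zc3h12c-202 took 100% of the gene's TPM in both libraries there, and 78.8% and 84.9% in the read-based table. Rc3h1-202, the form with the long 3′ UTR, held 73.1% and 85.3% of its gene, and 48.9% and 71.0% in the read-based table. Khsrp-201 held 65.6% and 75.2%, against 68.6% and 79.1% read-based. Zc3h12a-201 held 84.5% and 79.9%, against 53.8% and 61.0% read-based. Zfp36l1-201 held 69.2% and 100%, the remainder in replicate 1 being Zfp36l1-204, a form of 545 bases with 19.3 counts. Its read-based shares were 62.1% and 94.2%. Zfp36l2 has a single annotated transcript.

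These transcript levels set how much of each coding RNA carries the nonamer printed above. The share of coding TPM in nonamer-bearing transcripts was 100% in both libraries for Zfp36, Zfp36l2 and Rc3h2. It was 69.2% and 100% for Zfp36l1 and 85.2% and 99.2% for Rc3h1, whose short form Rc3h1-201 lacks the element. For Elavl1 it was 63.3% and 63.5%, since Elavl1-201 with a 3′ UTR of 4218 bases holds the element and Elavl1-204 with 1257 bases does not. The read-based shares were 46.1% and 51.4% for Elavl1, 61.4% and 82.7% for Rc3h1, and 62.1% and 94.2% for Zfp36l1.

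A nonamer in the 3′ UTR of the leading coding transcript was found in 7.44% of 8574 detected protein-coding genes, searched on the transcript strand only. Long 3′ UTRs hold it more often, so each form was set beside the leading coding transcripts of detected genes whose 3′ UTR was 0.8 to 1.25 times as long. The share with the nonamer was 4.72% at the length of Zfp36-202 (767 bases), 9.34% for Zfp36l1-201 (1835 bases) and 9.02% for Zfp36l2-201 (1822 bases). It was 17.1% for Elavl1-201, 27.2% for Rc3h1-202 (7181 bases) and 20.9% for Rc3h2-201 (5160 bases). Counted as present or absent, the match of Zfp36 was thus the rarest of these for its length. The number of copies, such as the 8 of Elavl1-201, was not compared. A match is only these letters in this window, and binding was not measured here.

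Several members share ground with other genes, and how the counting treated strand was not given. Gm44710, antisense to Zfp36 over 1274 bases, had 14 and 18 counts, and Gm26669, on the strand opposite Zfp36l1, had 36.9 and 11.4. Ccl25, on the strand opposite Elavl1 with an overlap of 204 bases, had 216 and 348 counts. On the strand of Rc3h1, 3 loci of the class TEC, which await experimental support, held 378, 124 and 707 counts in replicate 1 and 378, 85 and 442 in replicate 2. These are apart from the 2524 and 3102 counts of Rc3h1 itself. A read inside an intron could be assigned to Rc3h1 only where an annotated Rc3h1 transcript holds that sequence. How much sequence those transcripts share with the 3 loci was not examined.

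The machinery that the factors recruit was present, and its 3 lists had lower medians than the 24.4 TPM of the decay factors. Of 18 genes of the CCR4-NOT complex and poly(A) shortening, 17 were detected, with a median of 9.64 TPM over the list. The deadenylase subunit gene Pan3 was highest at 82.3 ± 39.8 TPM, followed by the scaffold gene Cnot1 at 54.3 ± 17.3 TPM and the ubiquitin ligase gene Cnot4 at 31.2 ± 8.18 TPM. Tob1, an adaptor to the deadenylases, was lowest with 1.85 and 0.980 TPM. Retained_intron transcripts held 64.8% and 53.1% of Pan3 TPM and 41.5% and 40.4% of Cnot1 TPM. The order of Pan3, Cnot1 and Cnot4 did not hold over protein_coding transcripts alone. There Cnot4 had 27.4 and 19.9 TPM, Pan3 had 27.1 and 15.8 TPM, and Cnot1 had 17.3 and 12.1 TPM. Btg1, of the same list, had 29.0 and 15.2 TPM on that measure.

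Of 13 genes for decapping and 5′-to-3′ decay, 13 were detected with a median of 20.0 TPM. When every transcript was counted, the exonuclease gene Xrn1 led at 84.7 ± 20.1 TPM. The decapping enzyme gene Dcp2 had 43.7 ± 23.2 TPM and the helicase gene Ddx6 had 37.3 ± 9.05 TPM. Retained_intron transcripts held 70.1% and 65.8% of Xrn1 TPM. Over protein_coding transcripts alone Xrn1 had 29.6 and 24.1 TPM. On that measure it was below Dcp2 (60.1 and 27.3 TPM) and Ddx6 (31.9 and 24.2 TPM) in both libraries. Dcp1b was lowest at 1.62 ± 0.375 TPM. The exosome and SKI genes, which degrade RNA from the 3′ end, were lower, with 11 of 13 detected and a median of 3.83 TPM. Skiv2l had 16.0 ± 4.23 TPM, Exosc10 had 8.98 ± 2.23 TPM and Exosc9 had 7.63 ± 0.0354 TPM. Exosc6 had 0 counts in both libraries.

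Genes that regulate the decay factors included the most abundant RNA of all the pathway lists when every transcript was counted. All 9 were detected, with a median of 44.4 TPM. Malt1, encoding the paracaspase that cleaves Regnase-1 and the Roquins, had 47448 and 40193 counts, or 1118 and 638 TPM (878 ± 339). Its level was above that of every one of the 10 decay factors in both libraries. Retained_intron transcripts held 63.1% and 64.4% of Malt1 TPM, and its protein_coding transcripts had 285 and 161 TPM, above Zfp36 at 115 and 81.7 but below the targets Ccl3 (344 and 408 TPM) and Tnf (399 and 267 TPM). Mapkapk2, encoding the p38-activated kinase that phosphorylates tristetraprolin, had 109 ± 41.6 TPM, and Ywhaz, encoding a 14-3-3 protein of the kind that binds phosphorylated tristetraprolin, had 57.3 ± 11.4 TPM. Upf1, encoding the helicase that works with Regnase-1, was lowest at 12.5 ± 5.70 TPM.

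Of 15 other binders of AU-rich or stem-loop elements, 10 were detected, with a median of 20.7 TPM. Zc3hav1, encoding the antiviral zinc finger protein ZAP, had 133 ± 43.2 TPM, the RNase gene N4bp1 had 64.5 ± 31.4 TPM and Ybx1 had 49.3 ± 11.1 TPM. Elavl4 and Zfp36l3 were at 0 counts in both libraries.

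Known targets of these factors were abundant in the same RNA. Of 19 listed target genes, 14 were detected, with a median of 28.6 TPM. The chemokine gene Ccl3 had 344 and 408 TPM (376 ± 45.0), Tnf had 399 and 267 TPM (333 ± 93.3) and Ccl2 had 213 and 267 TPM (240 ± 37.8). Il6, the target shared by Regnase-1 and Arid5a, had 19.9 and 14.5 TPM, below the summed levels of Arid5a and Zc3h12a in both libraries. Over protein_coding transcripts alone, Arid5a at 25.5 and 13.3 TPM was above Il6 (19.9 and 14.5 TPM) in replicate 1 and below it in replicate 2. The T cell costimulator gene Icos, a Roquin target in T cells, was lowest with 6 and 4 counts. In the leading coding transcript, 6 of 10 decay factors and 4 of 14 detected targets held the nonamer, with median 3′ UTRs of 1828.5 and 720 bases. The shorter heptamer TATTTAT was found in 7 of 10 decay factors and 11 of 14 detected targets. Over 8574 detected protein-coding genes the shares were 7.44% for the nonamer and 28.7% for the heptamer, with a median 3′ UTR of 1012 bases. The heptamer was not compared among 3′ UTRs of like length. Cxcl2 was past 2-fold between replicates, at a relative log2 ratio of -1.01. No other gene of the 6 pathway lists with at least 10 counts in each library was past it.

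**Figure D5:**
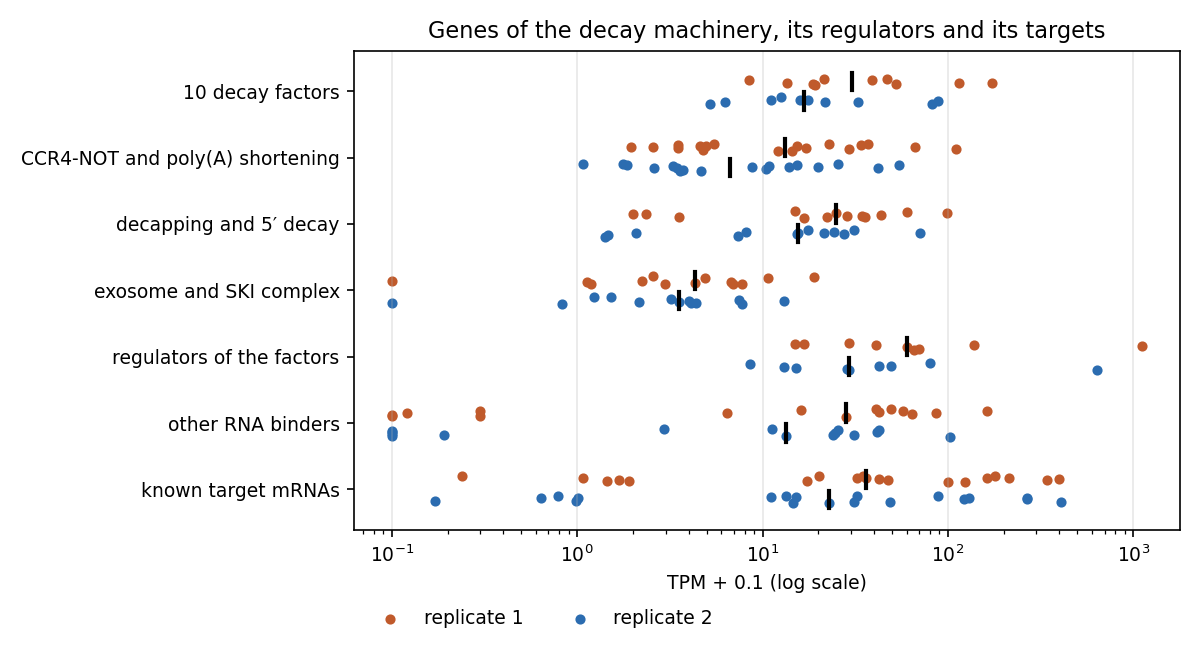
TPM + 0.1 (log axis) of each gene in the list of 10 decay factors and 6 pathway lists, with replicate 1 above replicate 2 in each list and black bars at the list medians. The exosome list lies lowest, with medians of 4.22 and 3.45 TPM, and the regulators lie highest, with Malt1 far right at 1118 and 638 TPM.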

How the data were processed

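The authors deposited 3 tables per library, per the labels' accompanying notes. A gene table and the matching transcript table came from reads aligned to the transcriptome, and another transcript table came directly from reads. The build was mm10 with GENCODE annotation M21. No aligner, quantification tool, version or strand setting is given in the sources used here. The file headers give column names, among them expected count, effective length, TPM and FPKM. The deposited expected counts are estimates that can be fractional, as their values show. By its usual definition TPM divides by effective length and sums to a fixed total over all entries. The deposited FPKM served as an alternative, and the deposited percent of gene TPM per transcript was recomputed from TPM. Of the TPM total, 29.7% and 20.8% fell to nuclear-encoded protein-coding genes. Which classes of RNA held the remainder was not tested. Entries without a gene name held 1.45% and 0.279% of counts.

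Symbols were linked to the gene tables by gene ID. Medians, shares and relative log2 ratios were computed with Python 3.11.15, pandas 2.3.3 and numpy 2.4.6, and plotted with matplotlib 3.10.9. TMM (edgeR 4.0.16) and DESeq2 1.42.0 size factors in R 4.3.3, on rounded counts, were alternative scalings. The ratio step was tested on simulated counts with Poisson noise only. That test added 0.1 TPM, not the 1 TPM of the reported ratios, and changed well-counted genes only. It therefore says nothing of how the reported setting treats low genes. Every member is described, and of each other list the 3 highest genes and the lowest by mean TPM are named; other genes named were chosen after their values were seen. The members and lists were chosen with earlier results of these data known. Sequences are from the GENCODE M21 transcripts. The 2 libraries are replicates of 1 group, and their spread may be partly technical.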

Additional observations from a re-analysis of the deposited data

How the results depend on the processing

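With 2 libraries of 1 group, each SD rests on 2 values and no p-value exists. No paired analysis was possible because all samples belong to 1 group. The number of detected members was 10 under every alternative run, and the number above the median gene ran from 8 to 10. The number of members past 2-fold between replicates was 0 as reported, and 1 (Zc3h12c) when no filter was set on low values and over protein_coding transcripts alone, the last chosen after seeing the data. The median relative log2 ratio of the members was -0.09 as reported and -0.37 with no filter on low values, since that filter sets the median gene. The members led by a noncoding transcript were 3 as reported and 1 by expected counts, and 1 to 3 when a replicate was left out. The median retained_intron share was 38.9% as reported, 18.5% by expected counts, which weigh long transcripts more, and 34.3 to 43.6% when a replicate was left out. At a limit of 5 TPM, also chosen after seeing the data, detected genes were 9 in place of 17 for CCR4-NOT and poly(A) shortening, and 3 in place of 11 for the exosome and SKI complex. Levels moved by more than 1 SD for 4 members in the read-based table and for 4 over protein_coding transcripts alone. Rescaling to nuclear-encoded protein-coding genes multiplies all levels of a library by the same factor, and that factor differs between the libraries. The shift in level that it brings therefore says nothing of stability. The spread between replicates did change with it, as given above.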
